A study of Mus musculus with 11 samples.

Results

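The genes described here encode 10 neuropeptide precursors, chosen by symbol from the 24411 gene symbols counted in every library: Sst, Cort, Npy, Vip, Cck, Crh, Tac2, Penk, Pdyn and Tac1. Their RNA was measured by RNA sequencing in 11 libraries from adult mice of 8 to 10 weeks. Corpus callosum, the myelinated tract that joins the hemispheres, was dissected from wild-type mice (n = 3 libraries) and from mice labelled Bmal1-/- (n = 2), a knockout of the core clock transcription factor Bmal1. Primary neurospheres, free-floating balls of stem and progenitor cells of the brain, were grown for 1 week from the subventricular zone of wild-type mice (n = 3) and Bmal1-/- mice (n = 3), in medium that held EGF at 20 ng/ml and heparin at 2 ug/ml. The labels name neither the deleted part of Bmal1 nor a Cre driver, and are silent on whether each library had its own animals or culture, and every p-value therefore reflects variation among the sequenced libraries, which may be technical.

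Neuropeptides are made as longer precursors, cut by prohormone convertases in dense-core vesicles, and released to act on G-protein-coupled receptors of nearby cells. In the forebrain, somatostatin, cortistatin, neuropeptide Y, vasoactive intestinal peptide and cholecystokinin mark types of cortical and hippocampal interneuron, with cholecystokinin also made by pyramidal cells. Enkephalin, dynorphin and substance P, from Penk, Pdyn and Tac1, are the classic peptides of striatal projection neurons, and the striatum lies directly below the callosum. Vasoactive intestinal peptide is also a coupling signal of the circadian pacemaker in the hypothalamus, and several peptide promoters respond to cAMP through the factor CREB.

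The upstream sequences were searched for letters that CREB and the clock are known to read, which were found before 5 of 8 genes and not before Npy, Pdyn or Tac2. RefSeq promoters (build GRCm38.p6, the assembly of mm10) were at hand for 8 of the 10 genes, all but Penk and Crh, and the 250 bases before each start site were searched on both strands. The letters CACGTG, the E-box bound by BMAL1 and its partner CLOCK, stood before Cck and Tac1, 2 of 8 genes, and in 6.02% of all 32851 promoters. The full cAMP response element, TGACGTCA, stood before Sst alone of the 8 and in 1.55% of all promoters. Its shorter form TGACG, which lies inside the full element and is counted with it, stood before Cck, Cort, Sst, Tac1 and Vip and in 17.8% of all promoters. The D-box TTATGTAA, read by the clock output factor Dbp, stood before none of the 8 and in 0.819% of all promoters. These matches describe letters and are not shown to be sites in these cells. Shown are the 250 bases before Cck at chr9:121495695-121495944 on the minus strand, with the E-box and the reverse letters of the shorter cAMP element in capitals, and 30 bases with 1 motif in capitals before Sst at chr16:23890874-23890903 (minus), Vip at chr10:5639127-5639156 (plus) and Tac1 at chr6:7554988-7555017 (plus).
Cck: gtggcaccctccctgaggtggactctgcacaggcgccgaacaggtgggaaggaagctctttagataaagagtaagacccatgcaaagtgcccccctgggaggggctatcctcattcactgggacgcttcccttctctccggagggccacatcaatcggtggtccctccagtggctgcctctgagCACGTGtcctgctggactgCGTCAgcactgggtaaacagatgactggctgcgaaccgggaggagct
Sst: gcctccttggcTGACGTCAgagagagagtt
Vip: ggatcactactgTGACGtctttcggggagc
Tac1: tggggagagtgtCACGTGgctctacaggct
The Cck E-box began 66 bases before the start and that of Tac1 61 bases before it, while the Sst element began 48 bases before and the Vip letters 79 bases before. These distances are from the start site in the promoter table. For Sst other annotation starts further upstream, since the RefSeq limits of the gene enclose the 30 bases shown and GENCODE M21 has an exon there, as it does for a transcript of Tac1. The RefSeq limits of Vip, from 5639193, also begin upstream of its start site in the promoter table, though after the 30 bases shown. From those limits the Vip letters lie nearer than stated.

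Each library held 17450270 to 19717848 counts in genes, so that 3 counts, the limit that a count of 0 allows, stood for 0.152 to 0.172 CPM, the unit of library-scaled counts used throughout. Callosum libraries expressed all 15 myelin and oligodendrocyte markers examined (summed level 19029 to 29931 CPM) and also all 22 markers of cortical and hippocampal excitatory neurons (14020 to 20214 CPM) and all 17 of striatal neurons. Neurospheres expressed all 15 stem and progenitor markers (5972 to 9854 CPM), and neuron markers were also present there, with a count in every library for all 19 general neuron markers (921 to 1206 CPM), 18 of 22 excitatory and 12 of 17 striatal ones. Of these 3 lists, Neurod6 and Isl1 were at 0 in all 6 libraries. Map2 was the largest part of the general neuron sum in every neurosphere library, at 445 to 841.5 CPM. The same 19 markers summed to 16131 to 22285 CPM in callosum. The neurosphere sum therefore does not measure the share of neurons. The first Bmal1-/- neurosphere library stood apart, with 22.6% of reads unmapped, the highest of the 11, and a microglia marker sum of 249 CPM against 55.0 to 109 in the other neurosphere libraries. Bmal1 itself, listed as Arntl, was not a check of the labels, since its log2 fold change was 0.03 ± 0.14 (SE, edgeR adjusted p = 0.944) in callosum and -0.01 ± 0.17 (adjusted p = 0.983) in neurospheres. Nr1d2, a direct target of the clock, had 9.91 ± 0.14 CPM (SD, n = 3) in wild-type and 1.41 ± 0.60 CPM (n = 2) in Bmal1-/- callosum, and 74.1 ± 2.61 CPM (n = 3) and 4.28 ± 0.73 CPM (n = 3) in neurospheres. It fell in both sources in edgeR (adjusted p = 0.00117 and 4.028e-04), and every Bmal1-/- library was below every wild-type one of its source. A difference in whole-tissue RNA cannot tell fewer cells of a type from less RNA per cell.

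All 10 genes were detected in every callosum library, where they took 19650 to 25052 counts, or 0.111% to 0.141% of the total. Per kilobase of exon, the scale on which genes can be set side by side, Sst had the highest level in wild-type callosum, 703 CPM per kilobase (lowest 646, highest 739 of 3 libraries). Cck followed at 293 (205 to 346), Npy at 236 (219 to 248) and Penk at 121 (54.1 to 202). The remaining genes were lower, with Cort at 25.4 CPM per kilobase (21.98 to 27.6), Pdyn at 6.83 (5.39 to 8.22), Tac1 at 4.95 (2.71 to 8.43), Tac2 at 4.34 (3.71 to 4.70), Crh at 3.65 (2.87 to 4.57) and Vip at 0.911 (0.726 to 1.18). Of the neighbours in this order, Cck and Npy, Pdyn and Tac1, Tac1 and Tac2, and Tac2 and Crh overlapped in their ranges, and the other neighbours did not. The widest ranges, as the ratio of highest to lowest, were those of Penk and Tac1. Each length merged all GENCODE M21 exons of the gene. The annotation behind the counts is not given, so the order of the genes may differ with other exon lengths.

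**Figure D1:**
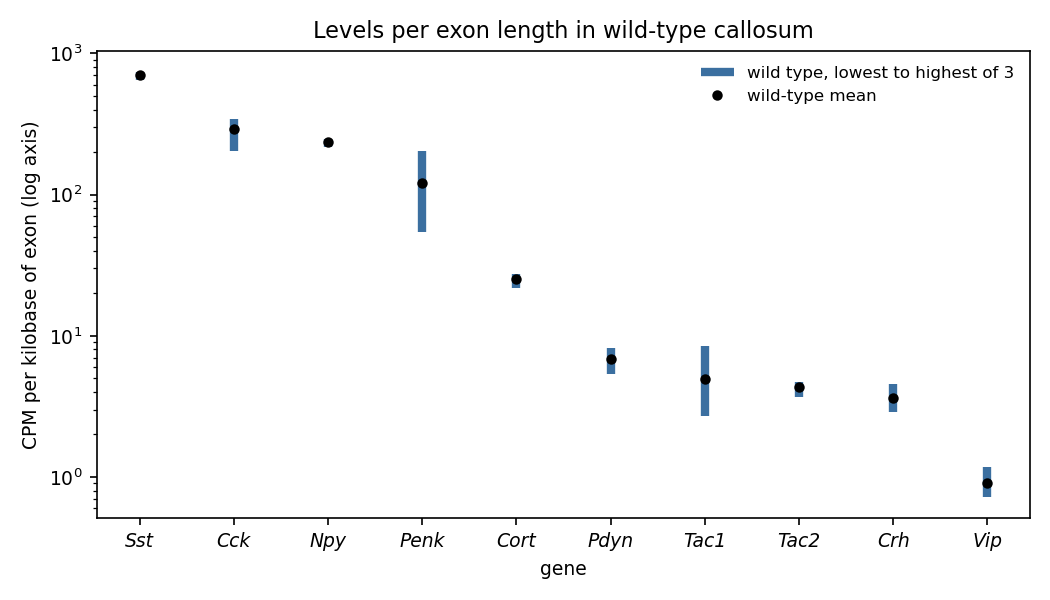
Levels of the 10 precursor genes in wild-type callosum, in CPM per kilobase of exon on a log axis, with points for the mean of 3 libraries and bars from the lowest to the highest. Sst stands highest at 703 and Vip lowest at 0.911, and the bars of Penk and Tac1 are the longest.

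Bmal1-/- and wild-type libraries were compared first in the callosum, where all 10 genes passed the filter on low counts. None of the 10 passed an adjusted p of 0.05 in edgeR's quasi-likelihood test, against 0.909% of all genes (129 of 14198). DESeq2 and limma-voom called none of the 10 as well. At an unadjusted p under 0.05 there were 2, Npy and Pdyn, against 1969 of 14198 among all genes. The 129 became 27 without wild-type library 3, 73 without wild-type library 2, and 49 without Bmal1-/- library 1. The Bmal1-/- and wild-type libraries did not overlap for 5 of the 10 genes, against 32.5% of all genes, with Npy above wild type and Vip, Tac2, Pdyn and Tac1 below it. The median log2 fold change of the 10 was -0.20, beside -0.01 for all genes tested.

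**Figure D2:**
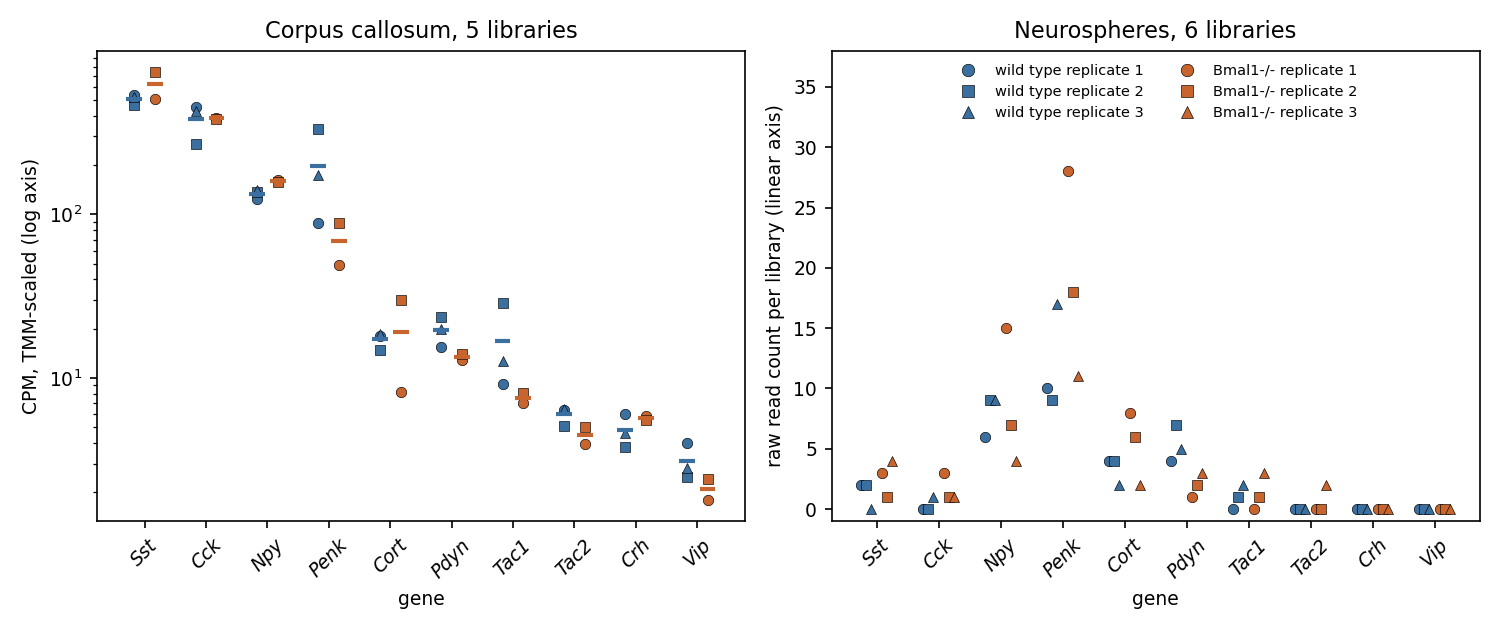
Levels of the 10 genes by library, as TMM-scaled CPM on a log axis in callosum (left, 3 wild-type and 2 Bmal1-/- libraries, bars at group means) and as raw counts on a linear axis in neurospheres (right, 3 and 3 libraries). Penk in wild-type callosum spreads from 88.5 to 331 CPM, and no neurosphere library holds more than 28 counts of any of the genes.

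Sst (chr16:23889573-23891342, minus strand) encodes somatostatin, an inhibitory peptide of interneurons that target dendrites. In callosum it measured 533, 466 and 523 CPM in wild-type replicates 1, 2 and 3, and 504 and 739 CPM in Bmal1-/- replicates 1 and 2. The second Bmal1-/- library was above every other, while the first lay inside the wild-type range. Its log2 fold change was 0.29 ± 0.16 (adjusted p = 0.435). It was 0.55 ± 0.14 without the first Bmal1-/- library and -0.0039 without the second.

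Cort (chr4:149125034-149126763, minus strand) encodes cortistatin, a close relative of somatostatin that binds the same receptors. Its levels were 18.0, 14.9 and 18.7 CPM in wild type and 8.21 and 30.1 CPM in Bmal1-/-. The mutant libraries lay on opposite sides of all 3 wild-type libraries, and the log2 fold change of 0.16 ± 0.51 (adjusted p = 0.915) lies between them. Without the second Bmal1-/- library the log2 fold change was -1.06 ± 0.21 (adjusted p = 0.0539), and without the first it was 0.82 ± 0.17 (adjusted p = 0.150). The summed level of 19 activity-dependent genes also differed between these libraries, at 2851 and 4274 CPM, with 2665 to 4372 in wild type, and its part in the Cort values was not tested.

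Npy (chr6:49822710-49829507, plus strand) encodes neuropeptide Y, a peptide of interneurons that dampens excitation. It measured 124, 136 and 140 CPM in wild type and 162 and 157 CPM in Bmal1-/-. Both mutant libraries were above all 3 wild-type ones, and replicates within each genotype lay close together. The log2 fold change was 0.26 ± 0.10, or 1.20-fold, with an unadjusted p of 0.0289 and an adjusted p of 0.306. Across 14 alternatives it ranged from 0.21 to 0.32 and passed the threshold in none, the adjusted p ranging from 0.222 to 1.

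Vip (chr10:5639193-5647617, plus strand), the precursor of vasoactive intestinal peptide, had the lowest level per kilobase. Its levels were 4.01, 2.47 and 2.82 CPM in wild type and 1.80 and 2.41 CPM in Bmal1-/-. The groups did not overlap, but the second library of each differed by less than 0.1 CPM. The log2 fold change was -0.55 ± 0.29 (adjusted p = 0.432).

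Cck (chr9:121489824-121495694, minus strand), which encodes cholecystokinin, measured 451, 268 and 428 CPM in wild type and 389 and 385 CPM in Bmal1-/-. The mutant libraries lay inside the wild-type range, which was set at its lower end by replicate 2. Its log2 fold change was 0.02 ± 0.20 (adjusted p = 0.975), and -0.18 ± 0.10 without that library. The sum of 22 excitatory neuron markers was also lowest in that library, at 14020 CPM against 17090 to 20214 in the other 4, and its part in the Cck value was not tested.

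Crh (chr3:19693401-19695396, minus strand) encodes corticotropin-releasing hormone, which drives the pituitary stress response and is also made by cortical interneurons. It measured 6.04, 3.79 and 4.62 CPM in wild type and 5.82 and 5.50 CPM in Bmal1-/-, again inside the wild-type range (log2 fold change 0.23 ± 0.22, adjusted p = 0.670). Tac2 (chr10:127724478-127731768, plus strand) encodes neurokinin B. It measured 6.38, 5.11 and 6.48 CPM in wild type and 3.96 and 4.98 CPM in Bmal1-/-. Both mutant libraries were below all 3 wild-type ones, the nearest by little (log2 fold change -0.42 ± 0.20, adjusted p = 0.397).

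The list of 28 GABA interneuron markers, other than the peptides themselves, follows the RNA of these cells. All 28 were detected in every callosum library, and their summed level was 1948, 1745 and 1738 CPM in wild type and 1958 and 1851 CPM in Bmal1-/-. Of 27 tested, 0 were called by genotype, 3 had an unadjusted p under 0.05, and the median log2 fold change was -0.03.

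The opioid precursors Penk and Pdyn and the tachykinin precursor Tac1 are described together for their shared place in striatal neurons, and Penk and Tac1 varied more between wild-type libraries than the other 8 genes. Penk (chr4:4133536-4138815, minus strand) encodes proenkephalin, the source of enkephalins, which act on delta and mu opioid receptors. Its levels were 88.5, 331 and 175 CPM in wild type and 49.0 and 88.8 CPM in Bmal1-/-. The first wild-type library and the second Bmal1-/- library were nearly equal, so the groups overlapped. The log2 fold change was -1.52 ± 0.65 (adjusted p = 0.400). Reads from A830012C17Rik, annotated on the opposite strand over a Penk exon, cannot be told apart from Penk in these unstranded counts.

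Pdyn (chr2:129686549-129699938, minus strand) encodes prodynorphin, the source of dynorphins, which act on the kappa opioid receptor. It measured 15.6, 23.7 and 19.9 CPM in wild type and 12.9 and 13.9 CPM in Bmal1-/-. The groups did not overlap. The log2 fold change was -0.56 ± 0.18, with an unadjusted p of 0.0140 and an adjusted p of 0.242. Tac1 (chr6:7555061-7562978, plus strand) encodes substance P and neurokinin A. It measured 9.20, 28.7 and 12.6 CPM in wild type and 7.05 and 8.13 CPM in Bmal1-/-. The groups did not overlap, and the second wild-type library was far above the other 4 (log2 fold change -1.15 ± 0.52, adjusted p = 0.403).

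Striatal neuron markers took the same order over the 5 libraries as Penk. The summed level of 17 such markers, among them Drd1, Drd2, Ppp1r1b and Adora2a, was 1576, 4418 and 2520 CPM in wild type and 1390 and 1739 CPM in Bmal1-/-. The second wild-type library was highest, and the first lay between the mutant libraries. Of the 17 markers, 0 were called by genotype, 16 had a log2 fold change below 0, and the median was -1.13. With the mean of these markers as a covariate in the model, the log2 fold change was -0.34 ± 0.14 for Penk (adjusted p = 0.411), -0.23 ± 0.15 for Pdyn (adjusted p = 0.622) and -0.15 ± 0.21 for Tac1 (adjusted p = 0.837). Without the second wild-type library the values were -0.93 ± 0.44 for Penk, -0.40 ± 0.17 for Pdyn and -0.52 ± 0.21 for Tac1. With the same covariate Npy had 0.32 ± 0.11 (adjusted p = 0.299).

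The marker sums of choroid plexus and of astrocytes did not overlap between the genotypes in callosum, while those of the other cell types examined did. Among all genes 32.5% did not overlap, so the separation of these sums is not read as a genotype difference. The summed level of 10 choroid plexus markers was 73.6, 142 and 233 CPM in wild type and 59.4 and 67.3 CPM in Bmal1-/-, and of 7 tested 0 were called, with a median log2 fold change of -1.20. The sum of 12 astrocyte markers was 6100.5, 6233 and 5904 CPM in wild type and 7924 and 8274 CPM in Bmal1-/-, with a median log2 fold change of 0.08 and 1 of 12 called higher and 1 lower. Gfap, the filament gene of reactive astrocytes, took 348 ± 56.6 CPM (SD, n = 3) of this sum in wild type and 1584 ± 47.1 CPM (n = 2) in Bmal1-/-. The part of these RNAs in the peptide gene values was not tested.

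**Figure D3:**
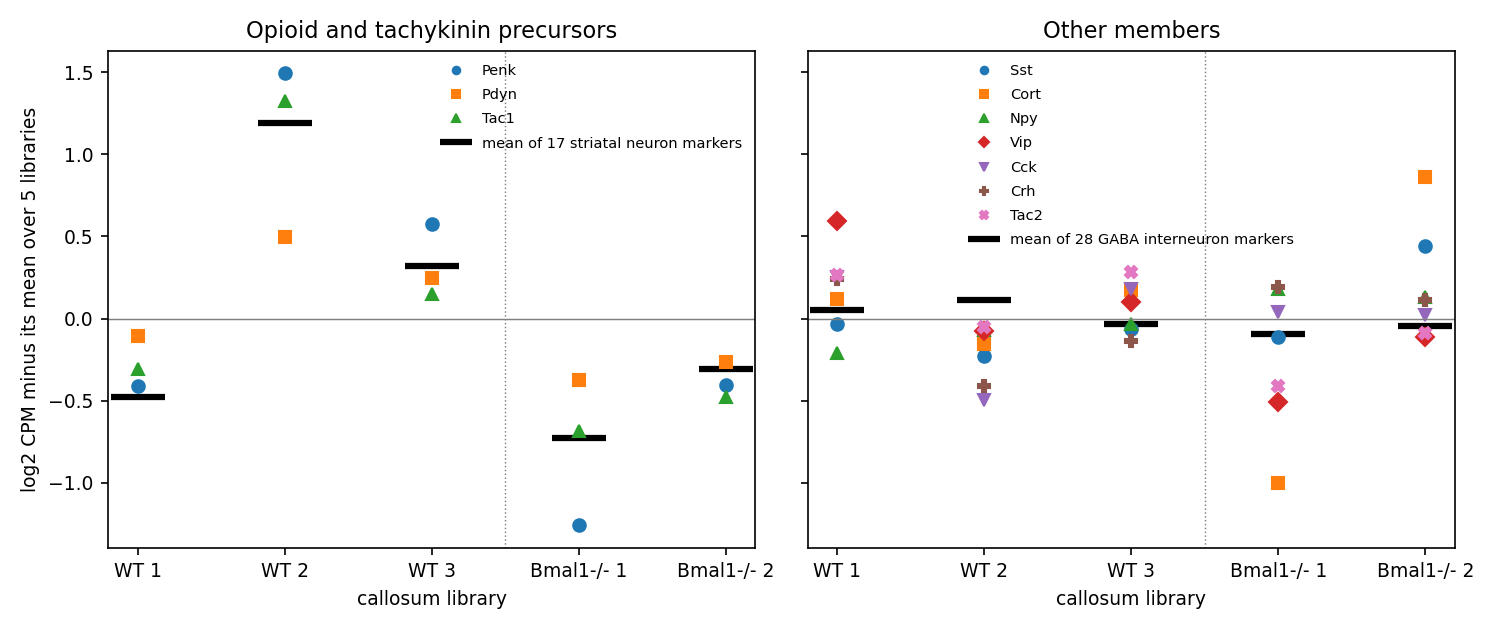
Log2 CPM of each gene minus its mean over the 5 callosum libraries, by library, for Penk, Pdyn and Tac1 with the mean of 17 striatal markers as a bar (left) and for the other 7 genes with the mean of 28 GABA interneuron markers (right). The 3 genes on the left and their bar are highest in wild-type library 2, where Penk stands at 1.49, while Cort on the right spans -1.002 to 0.86 between the mutant libraries.

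**Figure D4:**
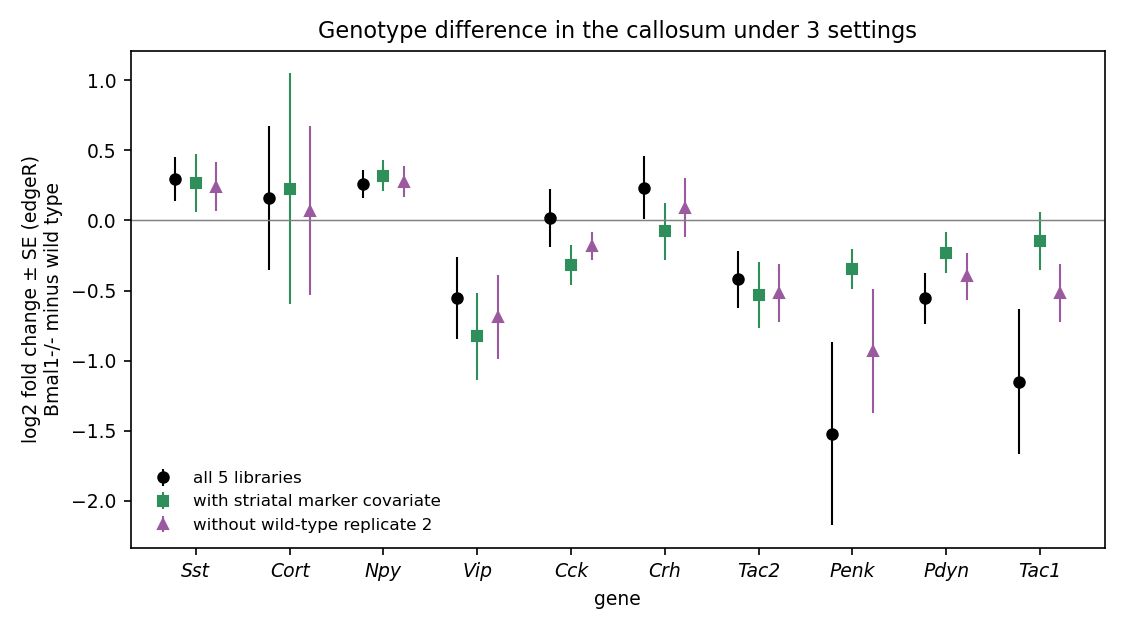
Log2 fold change of Bmal1-/- against wild-type callosum with its SE, for each gene, from all 5 libraries, with the striatal marker covariate, and without the second wild-type library. Penk moves from -1.52 to -0.34 with the covariate, and Npy stays between 0.26 and 0.32 in the 3 settings.

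Genes with the nearest pattern to each member over the 5 callosum libraries were found by the root mean square difference of centred log2 CPM, among genes of similar level. Among the nearest to Penk, of 7011 genes compared, were Adora2a (difference 0.128 log2 units), which is also in the striatal marker list, and Lrrc10b (0.141). Nearest to Cort were Grp (0.161), another neuropeptide precursor, then Fosl2 (0.239), an activity-dependent transcription factor, and Plaur (0.269). Grp measured 13.7, 9.22 and 12.3 CPM in wild type and 5.71 and 16.4 CPM in Bmal1-/-, and Fosl2 30.2, 32.1 and 35.0 against 22.3 and 55.2 CPM. For both, as for Cort, the mutant libraries lay on opposite sides of the wild-type range, a likeness that follows from how these genes were picked. Nearest to Tac1 were Slc35d3 (0.128), Rarb (0.131) and Mki67 (0.141).

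For the other members the nearest genes differed from them by less than 0.1 log2 units. They were Smox, Gpsm1 and Mtss1l for Sst, with the closest at 0.070, and Ankrd54, Zswim4 and Paip2 for Npy, at 0.019. Lin7b, Nrn1 and Kcnj3 were nearest to Cck (0.053), and Ntn5, Stard8 and Rnd1 to Vip (0.051). Gucy1a2, Pkdcc and Rtbdn were nearest to Crh (0.013), Ovol2, Fam198b and Pvrl3 to Tac2 (0.036), and Slc7a6, Bcap31 and Hspa9 to Pdyn (0.038).

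The peptides' receptors, processing enzymes and degrading enzymes were also compared by genotype in callosum. Of 22 receptors of these peptides, 17 were tested and 0 were called, with a median log2 fold change of -0.03, and 4 had an unadjusted p under 0.05. Vipr2, the receptor through which pacemaker neurons sense Vip, measured 0.395, 0.494 and 0.507 CPM in wild type and 0.932 and 1.72 CPM in Bmal1-/-. It passed the filter on low counts through its Bmal1-/- libraries alone, so the order of the groups is not read here. The same holds for its log2 fold change of 1.497 ± 0.43 (edgeR adjusted p = 0.184). Oprk1, the dynorphin receptor, measured 2.76, 3.90 and 3.44 CPM in wild type and 2.10 and 1.78 CPM in Bmal1-/- (log2 fold change -0.80 ± 0.26, adjusted p = 0.236).

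Of 20 genes for precursor processing and vesicle cargo, all were tested and 0 were called, with 2 at an unadjusted p under 0.05. Chga, which encodes the vesicle protein chromogranin A, measured 195, 159 and 203 CPM in wild type and 300.2 and 243 CPM in Bmal1-/-. The groups did not overlap, with a log2 fold change of 0.55 ± 0.14 (adjusted p = 0.126). It passed the threshold with DESeq2 (adjusted p = 0.0221), with the replicate block (0.62 ± 0.12, adjusted p = 0.0455) and with the neuron marker covariate (adjusted p = 0.04996), and over 14 alternatives the adjusted p ranged from 0.0221 to 0.781. Pam, the enzyme that amidates many of these peptides, had a log2 fold change of -0.31 ± 0.14 (adjusted p = 0.360). Of 12 degrading or binding proteins, all were tested and 0 were called, with 1 at an unadjusted p under 0.05, the smallest p values being those of Ace (log2 fold change -0.64 ± 0.18, adjusted p = 0.169) and Ece1 (0.23 ± 0.11, adjusted p = 0.387).

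Among 44 other neuropeptide precursor genes, 18 were tested and 1 was called. Apln, which encodes apelin, a peptide that acts on blood vessels, measured 34.2, 29.6 and 32.1 CPM in wild type and 17.002 and 21.1 CPM in Bmal1-/-. In edgeR the log2 fold change was -0.74 ± 0.14 (adjusted p = 0.0491). The call ended in 10 of 14 alternatives, the adjusted p ranging from 0.00195 to 0.683, with a log2 fold change between -0.90 and -0.59 throughout. Leaving out any 1 library but the second Bmal1-/- one ended it.

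In neurospheres the 10 genes together had 26 to 58 counts per library, or 0.000138% to 0.000332% of the total, with the first Bmal1-/- library the highest. Penk had 10, 9 and 17 counts in wild-type replicates 1 to 3 and 28, 18 and 11 in Bmal1-/- replicates 1 to 3. Npy had 6, 9 and 9 counts against 15, 7 and 4, and Cort 4, 4 and 2 against 8, 6 and 2. The groups overlapped for all 3 of these genes, and their highest count was each time in the first Bmal1-/- library.

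Pdyn had 4, 7 and 5 counts in wild-type neurospheres and 1, 2 and 3 in Bmal1-/-. The share of all genes without overlap was not computed in neurospheres, so the order of these low counts is not read. Sst had 2, 2 and 0 counts against 3, 1 and 4, Cck 0, 0 and 1 against 3, 1 and 1, and Tac1 0, 1 and 2 against 0, 1 and 3. Tac2 had 2 counts in the third Bmal1-/- library and 0 in the other 5, and Vip and Crh had 0 in all 6. Most of these libraries lay at or under the 3 counts that a count of 0 allows, so no difference was detectable at this depth for Sst, Cck, Tac1, Tac2, Vip or Crh.

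Only Penk, 1 of 10, passed the filter in neurospheres, with a log2 fold change of 0.63 ± 0.46 (edgeR adjusted p = 0.798). Without the first Bmal1-/- library it was 0.24 ± 0.46. No member was called, at an unadjusted p under 0.05 either, nor by DESeq2 or limma-voom, against 0.00716% of all genes (1 of 13968, with 422 at an unadjusted p under 0.05). The count of all genes was 5 without the first Bmal1-/- library. With no filter, 8 of the 10 could be tested and none was called, and Pdyn had a log2 fold change of -1.40 ± 0.69 (adjusted p = 0.790). Of the wider lists, 3 receptors, 19 processing genes, 9 degrading or binding proteins and 7 other precursors were tested, and 0 were called in each.

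The fold changes of the sources were set against each other in 1 model of all 11 libraries. None of the 10 was called, against 0.0131% of all genes (2 of 15322), and DESeq2 and limma-voom called none. The count of all genes was 10 without the first Bmal1-/- neurosphere library, and 1 without wild-type neurosphere library 2, wild-type callosum library 2 or 3, or Bmal1-/- callosum library 2. Penk alone of the 10 had an unadjusted p under 0.05 in edgeR's quasi-likelihood test, 0.0193, with a difference of -2.16 ± 0.80 in log2 fold change and an adjusted p of 0.999. Among all genes, 656 of 15322 had an unadjusted p under 0.05. For Vip and Crh, with no counts in any neurosphere library, the difference could not be estimated. For Tac2 it was -2.87 ± 1.51 (edgeR adjusted p = 0.999). That value rests on 2 counts in the third Bmal1-/- neurosphere library, with none in wild-type neurospheres.

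Between the sources, wild-type callosum held far more RNA of these genes per library than wild-type neurospheres. All 10 passed the filter through their callosum counts alone, so their calls in edgeR, beside 85.8% of all genes called (12645 of 14733), are not read here. Summed over 3 libraries a source, Cck had 20462 counts in callosum and 1 in neurospheres, a ratio of 22300 (95% counting interval 4003 to 881000) after division by total counts. Sst had 27207 and 4 counts, a ratio of 7414 (2895 to 27210). Npy had 7166 and 24 counts, a ratio of 326 (219 to 508). These 3 genes were the highest per kilobase in callosum, but the ratio of Npy was close to those of Tac1 (330.3) and Penk (324).

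Penk had 10695 counts in wild-type callosum and 36 in wild-type neurospheres, a ratio of 324 (95% interval 234 to 463), and Tac1 909 and 3, a ratio of 330.3 (113 to 1605). Pdyn had a ratio of 72.3 (44.3 to 127), from 1061 and 16 counts, and Cort of 100.5 (54.4 to 210.3), from 922 and 10 counts. The intervals of Pdyn and Cort overlapped. For the genes with no count in wild-type neurospheres, callosum was at least 60.3-fold higher for Vip (166 counts), at least 93.7-fold for Crh (258 counts) and at least 117-fold for Tac2 (321 counts), with the floor of 3 counts taken over the group. In Bmal1-/- libraries the ratio was 4294 (1840 to 13230) for Cck and 4318 (2191 to 10000) for Sst, from 5 and 8 neurosphere counts. It was 340.4 (232 to 522) for Npy, 124 (56.6 to 340.1) for Pdyn, 105 (40.7 to 390) for Tac1, 67.3 (51.7 to 89.1) for Penk and 66.8 (40.8 to 118) for Cort. For Tac2, with 2 neurosphere counts, it was 124 (33.8 to 1034), and Vip and Crh were at least 39.0-fold and 104.7-fold higher in callosum. These intervals cover counting error only, not the spread between libraries.

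Of 20 processing and vesicle genes, 17 were called higher in wild-type callosum and 3 lower, beside 6195 higher and 6450 lower of 14733 among all genes. The 17 include Pcsk1, with 248 counts in callosum and 5 in neurospheres, which passed the filter through callosum alone and is not read. Pcsk2, a prohormone convertase, had 506 ± 28.6 CPM (SD, n = 3) in callosum and 2.28 ± 0.84 CPM (n = 3) in neurospheres. Chga had 225 ± 29.3 and 1.85 ± 0.60 CPM, and the convertase inhibitor precursor Pcsk1n 3359 ± 521 and 31.4 ± 8.15 CPM. Lower in callosum were Cpd, a carboxypeptidase (41.2 ± 8.98 and 318 ± 18.0 CPM), Qpct, which forms pyroglutamate ends (7.46 ± 2.36 and 34.5 ± 5.30 CPM), and Pam (81.1 ± 11.3 and 129 ± 8.05 CPM).

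Most receptor counts were in callosum, and as for the 10 members, calls are not read for genes that passed the filter through callosum alone. The delta opioid receptor Oprd1 had 1553 counts in callosum and 1 in neurospheres, the cholecystokinin receptor Cckbr 5950 and 8, and Vipr1 2340 and 11. Vipr2 was lower in callosum, at 0.563 ± 0.074 CPM in callosum and 3.66 ± 0.50 CPM in neurospheres. Vipr2 passed the filter through its neurosphere counts alone, so its log2 fold change of -2.68 ± 0.28 is not read.

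Of 11 degrading or binding proteins tested, 4 were called higher in callosum and 4 lower, beside 6195 higher and 6450 lower of 14733 among all genes. Crhbp and Dpp4 passed the filter through their callosum counts alone, so their calls are not read and only their levels are given. Crhbp, which binds corticotropin-releasing hormone, had 568 counts in callosum and 4 in neurospheres, and the peptidases Dpp4 (1.24 ± 0.13 and 0.190 ± 0.052 CPM) and Ace (29.7 ± 6.04 and 5.11 ± 0.85 CPM) were also higher in callosum. The peptidases Lnpep (2.75 ± 0.31 and 132 ± 14.7 CPM), Ide (34.1 ± 11.7 and 547 ± 62.4 CPM) and Nln (13.9 ± 1.69 and 88.3 ± 8.05 CPM) were lower there. Of the other precursors, Grp, Pnoc and Edn3 had 630, 590 and 132 counts in callosum and 0 in neurospheres, while Adm, which encodes the vasodilator adrenomedullin, had 1.78 ± 0.24 CPM in callosum and 124 ± 67.9 CPM in neurospheres. Npvf had 2 counts in callosum and 61 in neurospheres, and Gnrh1 11 and 70. Scaling sets the zero of this comparison, and the median log2 fold change of all genes was -0.06 with TMM scaling, 0.00 with RLE scaling and -0.57 with none.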

How the data were processed

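The authors deposited raw read counts per gene symbol for each library. Reads were aligned with STAR 2.7.1a to mm10, per the submitters' processing notes, with the gene annotation not given in the sources used here. Counts that ignore strand were used, since 49.6% to 50.8% fell on the first strand, and 4 rows of reads assigned to no gene (unmapped reads among them, 7.77% to 22.6%) entered neither library sizes nor tests. Genes were filtered with filterByExpr, scaled by TMM and tested with edgeR 4.0.16 (quasi-likelihood, R 4.3.3), each comparison on its own libraries and the interaction on all 11, with Benjamini-Hochberg adjustment over all genes tested and a threshold of 0.05. The fits were also run on simulated counts with the same spread in every library, a check of the procedure and not of the spread in these libraries. Alternatives were RLE scaling, other filters, DESeq2 1.42.0, limma-voom (limma 3.58.1), a single model, a replicate block, marker covariates and each library left out. Levels are TMM-scaled CPM, computed here within each source, or across both wild-type sources where these are set side by side. Exon lengths are from GENCODE M21, and positions and promoters from RefSeq GRCm38.p6. Of 50-base stretches of the 10 genes' transcripts, only those of Vip (0.324%) also occur in other genes.

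All 10 genes are named in each comparison. From the wider lists, called genes are named (if more than 6, the 3 largest in each direction), or the 2 with the smallest p if none was called. The nearest genes are the 3 closest per member, of which some are not reported here. The genes and lists were chosen with earlier results of these data known. Intervals and floors cover counting error only.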

Additional observations from a re-analysis of the deposited data

How the results depend on the processing

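No alternative changed the number of the 10 genes called by genotype in callosum (0), by genotype in neurospheres (0), or for the difference between sources (0). The direction of 4 genes in callosum depended on the setting. Cort had a log2 fold change of -0.12 with limma-voom, -0.0134 with the replicate block, and -1.06 to 0.82 with 1 library left out. Cck had -0.32 with the striatal marker covariate, -0.0761 with the neuron marker covariate, and -0.18 to 0.16 with 1 library left out. Crh had -0.0786 with the striatal covariate, and Sst -0.0039 to 0.55 with 1 library left out. For the difference between sources, leaving out 1 library gave -0.20 to 0.82 for Npy and -1.71 to 0.18 for Cort. The causes were not tested.

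Counts of all genes moved more. In callosum, 129 became 224 with no filter, 330 with DESeq2, 33 in the single model, 218 with the neuron covariate, and 27 to 192 with 1 library left out. In neurospheres, 1 became 5 with no filter, 34 with DESeq2, 2 with limma-voom, 19 in the single model, 2 with the replicate block, and 1 to 5 with 1 library left out. For the difference between sources, 2 became 37 with DESeq2, 1 with the replicate block, and 1 to 10 with 1 library left out.

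Libraries with the same replicate number did not deviate together in every neurosphere pair (correlations 0.28, -0.01 and 0.31). Neurosphere pairs with differing numbers ran from -0.39 to 0.27, and the numbers were not taken to pair libraries. In callosum (0.05 and 0.01) the 2 Bmal1-/- libraries deviate from their mean as mirror images, so these correlations cannot show or exclude pairing. Replicate 1 stood apart from replicates 2 and 3 in both neurosphere groups, with a chi-square per degree of freedom of 34.9 and 45.9 against 6.85 in wild type and 132 and 130.4 against 13.4 in Bmal1-/-, and whether these libraries share a source is not given in the labels. With the replicate block, Penk had a log2 fold change of -1.38 ± 0.31 in callosum (adjusted p = 0.270) and 0 of the 10 genes were called, while the count of all genes there was 131. The callosum arm of 2 Bmal1-/- libraries limits every genotype comparison there, and with 1 left out the lone library is assumed to vary like wild type. In neurospheres depth limits 9 of the 10 genes.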
